A study of Rattus norvegicus with 10 samples.

Results

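The genes described here encode enzymes of cholesterol synthesis and its feedback regulator, and they were chosen by name from a list of 8 symbols: Hmgcs1, Sqle, Fdft1, Fdps, Idi1, Insig1, Lss and Dhcr7. Of these, 7 had at least 1 probe set carrying exactly that symbol in the platform annotation, out of 14217 genes with a symbol of their own, and Hmgcs1 is not analysed here. They were represented by 10 probe sets (groups of short oligonucleotides that read 1 transcript), with 2 each for Idi1, Fdft1 and Lss, and all 10 passed the filter on low values. Although the list was made for synthesis and uptake, none of the 7 encodes a receptor or carrier that takes up cholesterol. Expression was measured in the prefrontal cortex (frontal areas Fr1 and Fr2 ahead of bregma +4.0 mm, free of the olfactory bulb) of 10 male Lewis rats, an inbred strain, with 1 array per rat. The rats weighed 200 to 250 g, came from a set of 40 tested for behaviour, received no treatment and were killed 6 days after testing ended, so they form 1 group in which each behaviour is a score per rat. The labels give every rat a locomotion, startle, prepulse inhibition and sugar feeding score, and 7 of them a plus maze score, without units or ages. Scores averaged 682 ± 208 for startle, 12756 ± 2944 for locomotion, 1.25 ± 0.72 for sugar feeding and 27.3 ± 12.6 for prepulse inhibition (SD, n = 10), and 14.4 ± 21.5 for the plus maze (SD, n = 7).

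The brain makes its own cholesterol, because lipoprotein cholesterol does not cross the blood-brain barrier, and most of it sits in myelin. Oligodendrocytes and astrocytes carry much of the synthesis. The pathway joins isoprene units into farnesyl diphosphate, couples these to squalene, closes the rings to lanosterol and trims the sterol to cholesterol. When sterols in the endoplasmic reticulum fall, the SREBP2 transcription factor is released and raises transcription of nearly every enzyme of the route. INSIG1, itself an SREBP target, holds the SREBP escort SCAP in the endoplasmic reticulum when sterols are plentiful.

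Of the 7 genes, 5 had a promoter window in the RefSeq table (GRCr8 assembly, 250 bases before to 50 after the start point used there). Of these, 4 are shown because they belong to the genes whose levels correlated positively with one another. Capitals mark matches to CCAAT, the NF-Y motif, and to GGGCGG, the GC box bound by Sp1, on either strand (a match on the other strand reads ATTGG or CCGCCC). Each sequence is given 5′ to 3′ on the strand of the gene. The windows are chr17:66547475-66547774 (minus strand) for Idi1, chr2:176804767-176805066 (minus) for Fdps, chr1:208444184-208444483 (plus) for Dhcr7 and chr4:8057720-8058019 (minus) for Insig1. The Insig1 window reaches further into the gene span given below, chr4:8049339-8057812, than the other windows do into theirs.
Idi1: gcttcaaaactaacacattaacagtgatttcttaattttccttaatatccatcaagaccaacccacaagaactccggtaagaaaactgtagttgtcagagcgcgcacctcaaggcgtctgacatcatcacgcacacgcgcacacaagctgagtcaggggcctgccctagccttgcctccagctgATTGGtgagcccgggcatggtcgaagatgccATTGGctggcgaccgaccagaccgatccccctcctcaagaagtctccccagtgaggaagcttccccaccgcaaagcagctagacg
Fdps: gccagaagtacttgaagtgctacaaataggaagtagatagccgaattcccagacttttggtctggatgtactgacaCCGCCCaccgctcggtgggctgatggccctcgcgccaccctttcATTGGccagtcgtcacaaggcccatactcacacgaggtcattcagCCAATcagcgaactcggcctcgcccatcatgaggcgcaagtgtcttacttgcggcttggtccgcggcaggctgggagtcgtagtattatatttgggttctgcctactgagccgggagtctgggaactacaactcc
Dhcr7: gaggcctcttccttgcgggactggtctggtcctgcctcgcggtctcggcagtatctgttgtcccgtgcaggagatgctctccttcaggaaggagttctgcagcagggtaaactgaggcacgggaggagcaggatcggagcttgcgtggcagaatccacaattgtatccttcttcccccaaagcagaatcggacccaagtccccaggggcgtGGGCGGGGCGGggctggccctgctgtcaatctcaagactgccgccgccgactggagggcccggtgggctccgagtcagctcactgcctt
Insig1: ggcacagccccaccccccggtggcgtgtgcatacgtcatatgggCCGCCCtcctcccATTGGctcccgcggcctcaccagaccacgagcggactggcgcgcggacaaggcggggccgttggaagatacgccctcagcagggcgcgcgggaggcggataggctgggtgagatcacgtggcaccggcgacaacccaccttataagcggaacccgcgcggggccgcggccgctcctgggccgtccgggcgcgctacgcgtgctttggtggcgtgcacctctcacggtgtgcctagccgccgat
CCAAT stood in 4 of the 5 windows, those of Idi1, Fdps, Lss and Insig1, with 2 matches each in Idi1 and Fdps, against 37.7% of all 27457 promoter windows of the same length. GGGCGG stood in 4 of 5, those of Fdps, Lss, Dhcr7 and Insig1, against 34.9% of all windows, and its 2 matches in Dhcr7 overlap by 1 base. TCACNCCAC, the core of the sterol regulatory element that SREBP binds, was in 0 of the 5 windows and in 1.13% of all windows. A match describes these letters in this window and nothing more.

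All 10 probe sets varied little between the rats, by 1.11-fold to 1.54-fold from the lowest rat to the highest. Their SDs over the 10 rats were below the median SD of the tested probe sets, 0.135 log2, for 7 of the 10. All levels here are log2 expression summaries, and levels of different probe sets cannot be compared because each has its own binding strength. Values per gene are those of the probe set with the highest mean.

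Early in the route, Idi1 (chr17:66539761-66547524) encodes the isomerase that interconverts the pathway's activated isoprene units. Its level was lowest in rat 9 at 9.40, had a median of 9.75 and was highest in rat 4 at 9.95 log2 (mean 9.69, SD 0.17, n = 10). Rats 9, 1 and 5 lay apart at the low end, at 9.53 or below, and the others within 9.70 to 9.95. Its other probe set ran from 8.62 to 9.25 with a median of 8.75 and was again highest in rat 4. Fdps (chr2:176795192-176804816) encodes farnesyl diphosphate synthase, whose product also feeds protein prenylation. It ran from 9.96 in rat 3 to 10.30 in rat 4, with a median of 10.18 (mean 10.17, SD 0.11, n = 10). Rats 3 and 5 were the low ones, and the other rats stood within 10.13 to 10.30. Fdft1 (chr15:41588114-41616168) encodes squalene synthase, the first enzyme committed to sterols. It ran from 8.88 in rat 2 to 9.26 in rat 10, with a median of 9.02 (mean 9.05, SD 0.13, n = 10), and rats 10 and 7 stood above the rest. The other Fdft1 probe set ran only from 7.80 to 8.04.

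Later in the route, Sqle (chr7:92758175-92773049) encodes squalene epoxidase, an oxygen-dependent and rate-limiting step. Its level ran from 9.13 in rat 1 to 9.47 in rat 2, with a median of 9.24 (mean 9.27, SD 0.11, n = 10). Rats 2, 8, 4 and 10 were high, at 9.35 or above. Lss (chr20:12090641-12118230) encodes lanosterol synthase, which closes the sterol rings, and was the least variable of the 7 genes. It ran from 6.86 in rat 3 to 7.01 in rat 8, with a median of 6.90 (mean 6.91, SD 0.042, n = 10). Rat 8 stood alone at the top, and the other 9 rats lay between 6.86 and 6.92. The other Lss probe set was lowest in that same rat, at 6.68, and highest in rat 2 at 6.90. Dhcr7 (chr1:208444434-208460408) encodes the reductase of the last step and was the most variable gene. It ran from 7.53 in rat 7 to 8.09 in rat 4, a 1.47-fold span, with a median of 7.82 (mean 7.81, SD 0.20, n = 10). Rats 4, 6 and 8 were at 8.02 or above, and rats 7 and 5 were the lowest. The feedback regulator Insig1 (chr4:8049339-8057812) ran from 11.03 in rat 9 to 11.33 in rat 4, with a median of 11.19 (mean 11.19, SD 0.083, n = 10). Rat 9 stood apart at the low end, and the other rats lay within 11.12 to 11.33.

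**Figure D1:**
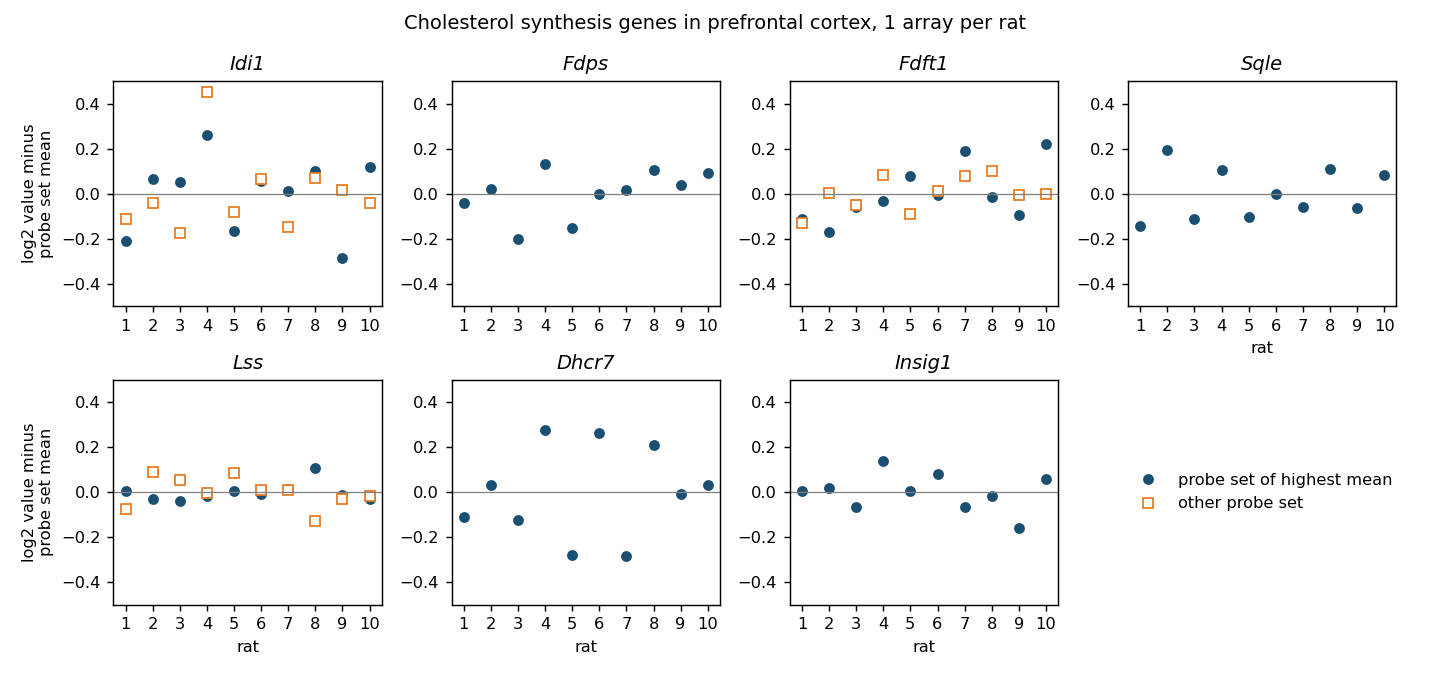
Log2 value minus the probe set's mean over the rats (y axis) for each of the 10 rats (x axis), 1 panel per gene, filled points for the probe set of highest mean and open squares for the other probe set. Rat 4 holds the highest point of Idi1, Fdps, Dhcr7 and Insig1, and the filled Lss points span the narrowest range.

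Rat 4 had the highest level of 4 of the 7 genes (Idi1, Fdps, Dhcr7 and Insig1). Rat 8 was among the 3 highest rats for 5 genes and rat 10 for 4. Rat 3 was among the 3 lowest for 5 genes, and rats 1 and 5 for 4 each. The mean of the 7 centred levels ran from -0.087 log2 in rat 5 to 0.12 in rat 4, a narrow range.

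Where a gene had 2 probe sets, they agreed only loosely over the rats, with no adjusted p under 0.05. For Idi1 r was 0.52 and rho was 0.54 (permutation p = 0.123 and 0.113, adjusted to 0.671 and 0.732). That relation leaned on rat 4, without which r was 0.10, while r was 0.71 without rats 1 and 9. For Fdft1 r was 0.24 and rho was 0.26 (permutation p = 0.502 and 0.471, adjusted to 0.833 and 0.80), with r = 0.053 without rats 7 and 10. The Lss probe sets were negatively correlated, with r = -0.69 and rho = -0.39 (permutation p = 0.0252 and 0.264, adjusted to 0.496 and 0.732). That r rested on rat 8 and was -0.29 without it, and -0.17 without rats 3 and 8. Adjustment here and below runs over all 136 pairs computed across rats, two-sided, of which 0 passed 0.05 for r or rho and 13 had an unadjusted p under 0.05 for r.

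Between genes, the levels of Idi1, Fdps, Sqle, Dhcr7 and Insig1 correlated positively with one another, and those of Fdft1 and Lss had lower correlations with them. This grouping was made after the correlations were seen, so it describes these rats and was not tested. It reads every gene by a single probe set, and the remaining ones of Idi1, Fdft1 and Lss were not compared with other genes. The Lss probe sets had r = -0.69 with each other, or -0.29 without rat 8, and the one used varied little (SD 0.042). Whether Fdft1 and Lss stand outside the group may therefore depend on the probe set chosen. All 10 pairs among the 5 genes had a positive r, from 0.33 to 0.69 with a median of 0.61. Of all 21 pairs of the 7 genes, 17 had a positive r. Among all tested probe sets, 57.5% had a positive r with Idi1, 67.7% with Fdps, 65.4% with Sqle, 63.4% with Dhcr7 and 63.6% with Insig1. The 11 pairs that involve Fdft1 or Lss ran from -0.29 to 0.30, with a median of 0.11. All genes of a rat were read on 1 array, so such pairs share its RNA and its processing. Of all tested probe sets, 8.72% had an r of at least 0.6 with Sqle and 12.7% with Fdps, against 3 and 2 of the 6 other genes. For Dhcr7 and Idi1 the shares were 9.72% and 4.36%, against 2 of 6 each, and for Insig1 8.76% against 1 of 6. For Fdft1 and Lss they were 4.55% and 2.24%, against 0 of 6 each.

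Sqle and Fdps had the highest r, 0.69 (permutation p = 0.0254, adjusted 0.496), with rho = 0.76 (permutation p = 0.0154, adjusted 0.456). Without rats 3 and 5, the low ones for Fdps, r was 0.62. Idi1 and Insig1 had r = 0.68 and rho = 0.67 (permutation p = 0.0277 and 0.0384, adjusted to 0.496 and 0.475), and r was 0.56 without rats 1 and 9. Idi1 and Sqle had r = 0.68 and rho = 0.77 (permutation p = 0.0328 and 0.0126, adjusted to 0.496 and 0.456), with r = 0.61 without rats 1 and 9. The last enzyme, Dhcr7, had r = 0.65 with Fdps and rho = 0.66 (permutation p = 0.0438 and 0.0443, adjusted to 0.496 and 0.502), and r = 0.53 without rats 3 and 5. With Sqle it had r = 0.65 and rho = 0.68 (permutation p = 0.0498 and 0.0354, adjusted to 0.521 and 0.475), and r = 0.71 without rats 2 and 8. Fdft1, which joins the step of Fdps to that of Sqle, had r = 0.12 with Fdps and rho = 0.091 (permutation p = 0.762 and 0.810, adjusted to 0.968 and 0.928) and -0.085 with Sqle and rho = 0.055 (permutation p = 0.813 and 0.892, adjusted to 0.974 and 0.948). These r were 0.27 without rats 3 and 5 and -0.28 without rats 7 and 10. Both hold for the Fdft1 probe set of highest mean only. The other Fdft1 probe set was highest in rats 8 and 4 (8.04 and 8.02 log2), where Fdps was also highest. It was low in rats 5 and 3 (7.85 and 7.89), where Fdps was lowest. Its correlations with the other genes were not computed, so the low r of Fdft1 may depend on the probe set.

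In limma fits of every other tested probe set on the level of 1 gene, adjusted over all of them, 0 of the 21 pairs of the 7 genes passed 0.05 in both directions, and 4 had an unadjusted p under 0.05 in both. Over all probe sets the share past the adjusted threshold was 0.0129% for Fdps and 0% for each of the 6 other genes. The share below an unadjusted 0.05 was 15.5% for Fdps, 12.4% for Fdft1, 10.1% for Dhcr7, 9.01% for Insig1, 8.36% for Sqle, 6.34% for Idi1 and 3.75% for Lss. The 2 probe sets past it with Fdps, named after their values were seen, were those of Camkmt, a calmodulin methyltransferase gene (0.29 ± 0.03 log2 per SD of Fdps, SE, limma adjusted p = 0.0118, n = 10), and of the F-box gene Fbxo30 (0.39 ± 0.04, limma adjusted p = 0.0147, n = 10).

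**Figure D2:**
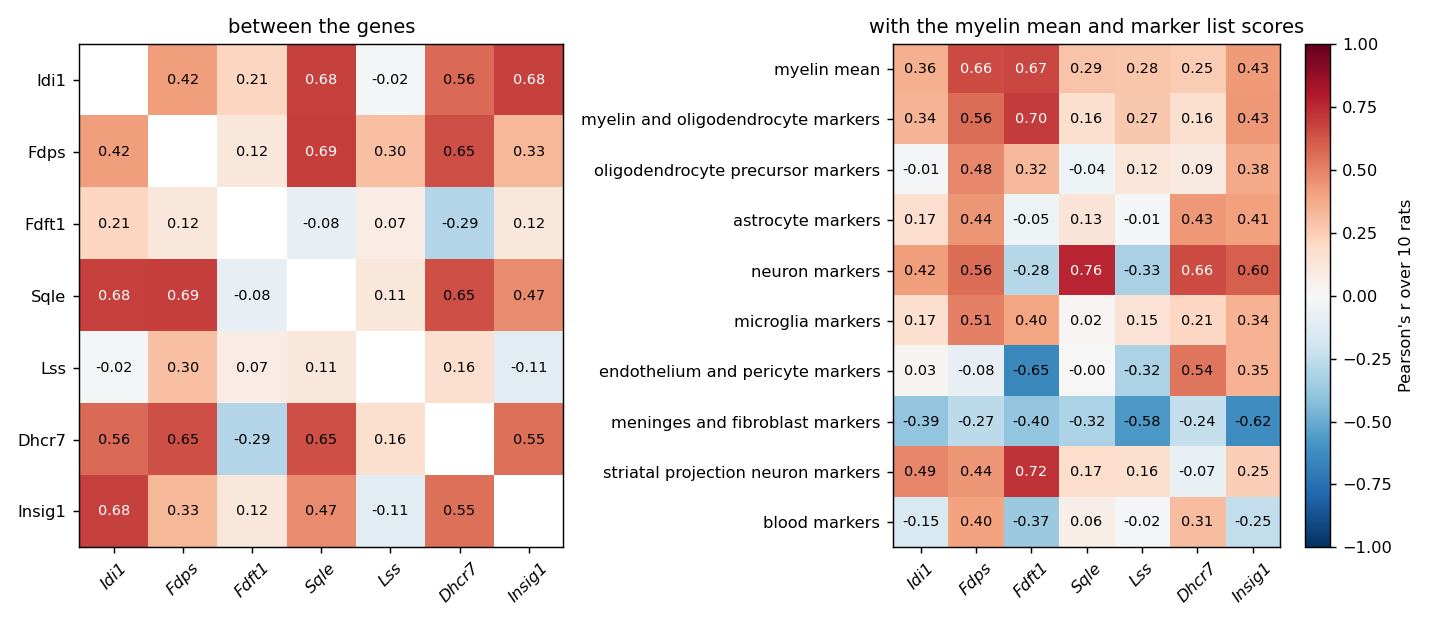
Pearson's r over 10 rats between the log2 levels of the 7 genes (left) and between each gene and the mean of Mbp and Mag or the score of a marker list (right, the mean of the centred log2 levels of its genes). The pairs of Sqle with Fdps and Idi1 reach 0.69 and 0.68, the pairs of Fdft1 with other genes lie between -0.29 and 0.21, and its highest r on the right is 0.72 with the striatal projection neuron markers. Each gene is read by its probe set of highest mean, and the other probe sets of Idi1, Fdft1 and Lss are not shown.

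The mean of Mbp and Mag was set against the cholesterol genes because myelin holds most brain cholesterol. Mbp encodes myelin basic protein and Mag a myelin adhesion protein, and in a tissue piece more myelinating cells and more RNA per cell cannot be told apart. The myelin mean was lowest in rat 3, at -0.56 log2 from the average, and highest in rats 7, 4 and 10, at 0.38, 0.27 and 0.23. Of the 3 Mbp probe sets, the one of highest mean was used, and it spanned 1.50-fold from rat 3 to rat 7. Another spanned 2.14-fold and was also lowest in rat 3, and the remaining one spanned 1.26-fold and was highest in rat 1.

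All 7 genes had a positive slope on the myelin mean, with a median of 0.052 log2 per SD, and none passed the threshold (limma, adjusted p of at least 0.247). Over all tested probe sets 62.0% of slopes were positive, the median slope was 0.016 and 2.69% passed, 417 of 15517. Fdft1 had the highest slope, 0.084 ± 0.034 (SE, n = 10; limma p = 0.0324, adjusted p = 0.247), or 1.06-fold for each SD. Fdps followed at 0.071 ± 0.031 (limma p = 0.0442, adjusted p = 0.284). These 2 of the 7 genes were below an unadjusted 0.05, beside 16.6% of all probe sets. The slopes of the other genes were 0.060 ± 0.052 for Idi1, 0.052 ± 0.063 for Dhcr7, 0.036 ± 0.030 for Insig1, 0.033 ± 0.038 for Sqle and 0.012 ± 0.022 for Lss. The 95% intervals of the 7 slopes lay between -0.089 and 0.19, so differences of up to 1.14-fold per SD of the myelin mean were within their error.

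As a correlation, Fdft1 and the myelin mean had r = 0.67 and rho = 0.75 (permutation p = 0.0365 and 0.0175, adjusted to 0.496 and 0.456), with r = 0.68 without rats 3 and 7. Fdps and the myelin mean had r = 0.66 and rho = 0.53 (permutation p = 0.0399 and 0.124, adjusted to 0.496 and 0.732). That r fell to 0.37 without rat 3 and was 0.46 without rats 3 and 7. The second Fdft1 probe set had a slope of 0.045 ± 0.026 (limma p = 0.111, adjusted p = 0.428), and the second Lss probe set one of the other sign, -0.017 ± 0.027. Of the 7 genes, the myelin mean had its lowest r, 0.25, with Dhcr7, which was low in rat 7, where myelin was highest, and r was 0.61 without that rat. The score of the myelin and oligodendrocyte markers, 13 of 14 tested and with Mbp and Mag among them, had r = 0.70 with Fdft1 (permutation p = 0.0264, adjusted 0.496). With Fdps it had r = 0.56 (permutation p = 0.0920, adjusted 0.609), or 0.26 without rat 3. Its r with the other genes ran from 0.16 for Dhcr7 and Sqle to 0.43 for Insig1.

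**Figure D3:**
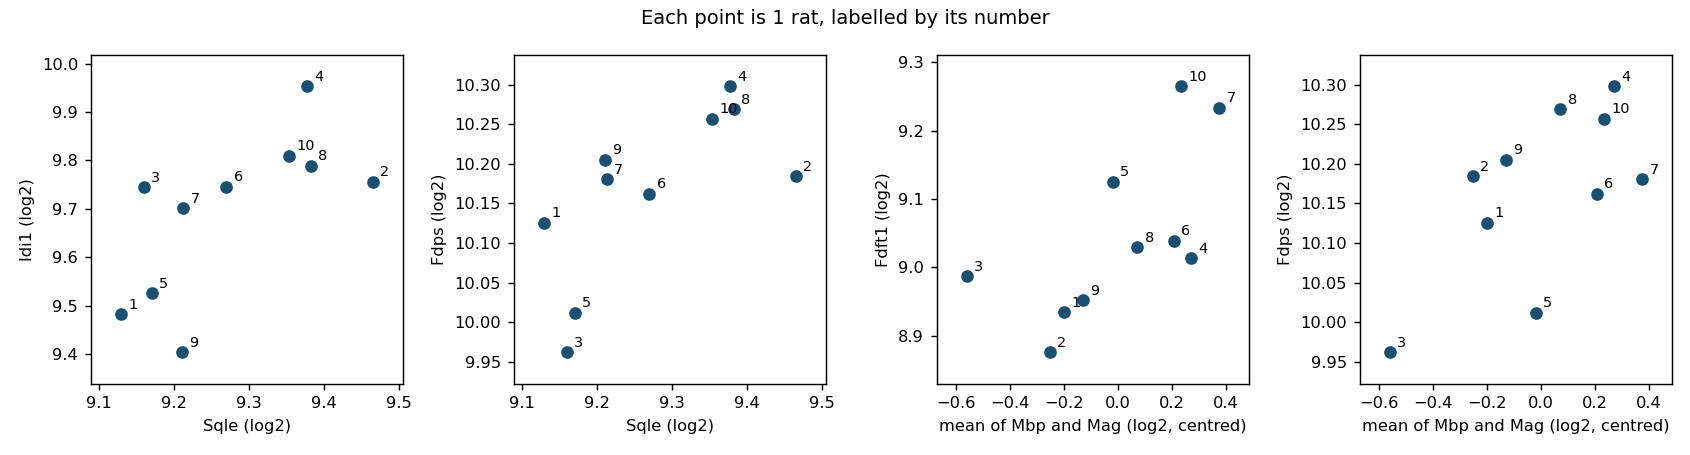
Log2 level of 1 gene (y axis) against that of Sqle or against the centred mean of Mbp and Mag (x axis), each point 1 rat with its number. Sqle rises with Idi1 and Fdps, at r = 0.68 and 0.69, and the myelin mean with Fdft1 and Fdps, at r = 0.67 and 0.66, where rat 3 is the leftmost point.

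Other cell markers varied with some of the genes, and their part in the results was not tested. Markers of striatal projection neurons, which a cortical piece should hold few of, differed widely between rats: 8 of 12 listed genes were tested, and their summed log2 level ran from 55.8 to 73.6. Adora2a, Tac1 and Gpr6 were below the filter level. Adora2a, a defining receptor gene of these cells, stood at 6.48 log2 in rat 7 and 4.48 in rat 4 against 2.09 to 2.73 in the others. The score was highest in rats 7, 4 and 10, the 3 rats of highest myelin mean. With that score Fdft1 had r = 0.72 and rho = 0.81 (permutation p = 0.0197 and 0.00721, adjusted to 0.496 and 0.456), and r = 0.89 without rats 4 and 7. In a fit on the myelin mean that held the striatal score as another term, the Fdft1 slope was 0.034 in place of 0.084. The slope of Fdps was 0.084, of Dhcr7 0.16, of Insig1 0.049, of Sqle 0.043, of Lss 0.016 and of Idi1 -0.0078. None of the 7 passed the threshold in that fit (limma, adjusted p of at least 0.626). The score and the myelin mean were highest in the same 3 rats, so their parts cannot be told apart.

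Neuron markers, 12 of 12 tested, with a summed log2 level of 144.6 to 148.2, had r = 0.76 with Sqle and rho = 0.64 (permutation p = 0.0145 and 0.0547, adjusted to 0.496 and 0.531). Without rats 2 and 4 that r was 0.49. With Dhcr7 they had r = 0.66 and rho = 0.78 (permutation p = 0.0431 and 0.0106, adjusted to 0.496 and 0.456), and 0.70 without those rats. Endothelial and pericyte markers, 8 of 9 tested and summing to 53.1 to 58.8, had r = -0.65 with Fdft1 and rho = -0.53 (permutation p = 0.0429 and 0.124, adjusted to 0.496 and 0.732) and -0.61 without rats 6 and 7. Meningeal and fibroblast markers, 7 of 9 tested and summing to 52.0 to 67.8, had r = -0.62 with Insig1 and rho = -0.39 (permutation p = 0.0561 and 0.263, adjusted to 0.545 and 0.732). Rats 3 and 9 carried that relation, and r was 0.069 when they were left out. Astrocyte markers, 11 of 12 tested and summing to 118.8 to 123.7, ran from r = -0.052 with Fdft1 to 0.44 with Fdps, with an unadjusted p above 0.05 for each gene. Of the genes that define the labelled tissue, Snap25, of the synaptic release machinery, stood at 14.32 to 14.64 and Slc17a7, the cortical glutamate transporter gene, at 12.50 to 12.86 log2. The mean of all tested probe sets of an array, a measure of overall brightness, had r from -0.55 with Fdft1 to 0.44 with Dhcr7.

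None of the 7 genes passed the threshold with any behaviour (limma, adjusted p of at least 0.776), and none had an unadjusted p under 0.05. Over all 15521 probe sets the share past the adjusted threshold was 0% for each of the 5 scores, and the shares below an unadjusted 0.05 were 5.59% for startle, 2.93% for locomotion, 2.13% for sugar feeding, 7.41% for prepulse inhibition and 6.95% for the plus maze. Fits with trend and robust variance also called 0. A slope is a log2 difference per SD of the score.

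With startle, the reflex to a loud sound, Fdft1 had the slope of smallest p among the 7, 0.075 ± 0.037 (SE, n = 10; limma p = 0.0678, adjusted p = 0.808). As a correlation, r was 0.59 and rho was 0.61 (permutation p = 0.0736 and 0.0665, adjusted to 0.609 and 0.566), and r was 0.27 without rats 1 and 2, the rats of lowest startle score. The other Fdft1 probe set had 0.016 ± 0.029. Myelin and striatal markers varied with startle as well, with positive slopes for 13 of 13 and 8 of 8 tested genes (medians 0.11 and 0.18), and their part in the Fdft1 slope was not tested. Slopes were negative for 5 of the 7 genes (Dhcr7, Sqle, Idi1, Insig1 and Fdps), with a median of -0.036 over the 7 against -0.015 for all probe sets, 37.7% of which had positive slopes. After quantile normalization Fdps turned positive, at 0.021, and the median was -0.0040.

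With prepulse inhibition, a measure of sensorimotor gating, all 7 slopes were positive but small, from 0.0029 for Insig1 to 0.052 ± 0.064 for Dhcr7, with a median of 0.024. Across all probe sets 41.3% of slopes were positive. Each of the 7 was smaller than its own SE, and the second Lss probe set had a slope of the other sign, -0.012 ± 0.028. The second Idi1 probe set had 0.10 ± 0.05 (limma p = 0.0641, adjusted p = 0.689), with rat 4 its highest value and the highest prepulse inhibition score. Cell markers had larger slopes on this score: myelin markers were positive for 13 of 13 tested genes (median 0.15, 3 with an unadjusted p under 0.05) and striatal markers for 8 of 8 (median 0.34). Astrocyte, endothelial and meningeal markers were negative for 11 of 11, 8 of 8 and 7 of 7 (medians -0.032, -0.063 and -0.19), and 0 genes of these 5 lists passed the adjusted threshold. With the striatal covariate Idi1 and Insig1 turned to -0.011 and -0.0064, and the part of the other markers was not tested.

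With locomotion the 7 slopes ran from -0.047 ± 0.041 for Fdft1 to 0.030 ± 0.055 for Idi1, and 4 of 7 were positive, beside 65.4% of all probe sets, with a median of 0.00011. That count was 2 of 7 after quantile normalization or with arrays centred on their medians, where Fdps and Dhcr7 turned negative. With sugar feeding they ran from -0.035 ± 0.065 for Dhcr7 to 0.042 ± 0.054 for Idi1, with 2 of 7 positive, Idi1 and Insig1, beside 58.4% of all probe sets. With the plus maze score, known for 7 rats, Dhcr7, Idi1, Fdps and Sqle had slopes of -0.075 ± 0.081, -0.069 ± 0.061, -0.067 ± 0.036 and -0.059 ± 0.049. There 2 of 7 slopes were positive, beside 39.2% of all probe sets. Fdps had r = -0.68 with that score and rho = -0.13 (exact p = 0.108 and 0.793, adjusted to 0.609 and 0.928), which rested on rat 5, the rat with the score of 60.3, since r was 0.32 without it. Without rat 5 the slopes of Dhcr7, Idi1 and Fdps turned to 0.11, 0.033 and 0.021. The 95% intervals of the 7 slopes reached no further than 0.831-fold to 1.14-fold per SD over the 5 scores.

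**Figure D4:**
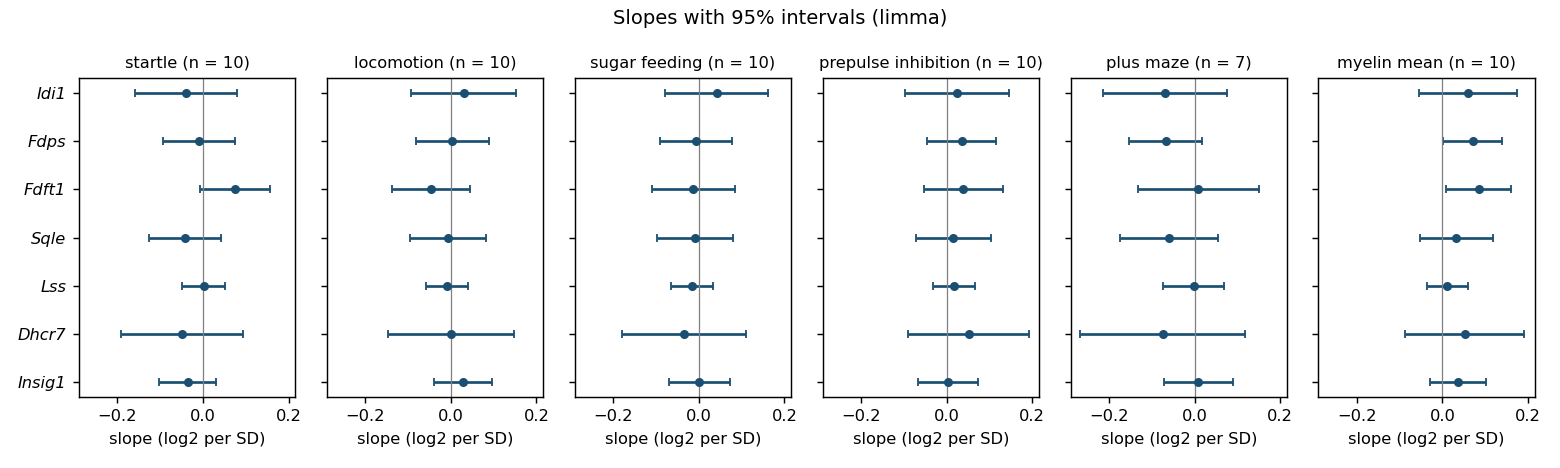
Slope of the log2 level per SD of each behaviour score or of the myelin mean (x axis) for the 7 genes (y axis), points with 95% intervals from limma, and the number of rats above each panel. The intervals include 0 for every behaviour, and for the myelin mean those of Fdft1 and Fdps lie just above it.

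Of the rest of the pathway, 34 genes were tested out of 49 symbols listed, some of them older names of a listed gene. These cover other enzymes of synthesis, sterol sensors, uptake, and transport or turnover. With the myelin mean 1 of the 34 rose and 0 fell, beside 2.69% past the threshold over all probe sets, so that count is near the background. An unadjusted limma p under 0.05 was found for 11 of the 34, beside 16.6% of all probe sets. Slopes were positive for 29 of the 34, beside 62.0% of all probe sets, with a median of 0.054. The 1 gene past the threshold was Nr1h2, which encodes the sterol-sensing receptor LXR beta. Nr1h2 had a slope of 0.19 ± 0.04 (SE, n = 10; limma adjusted p = 0.0368) and ran from 6.48 log2 in rat 3 to 7.16 in rat 7. Its adjusted p was 0.0260 to 0.164 when 1 rat was left out, passing in 3 of 10 such fits. It was 0.0743 with no filter on low values, 0.0508 on ranks and 0.488 with the striatal covariate. Msmo1, a sterol demethylase gene, had 0.10 ± 0.03 (limma adjusted p = 0.0945), and Npc2, which moves cholesterol out of lysosomes, 0.13 ± 0.04 (limma adjusted p = 0.100). Srebf2, which encodes SREBP2, had 0.024 ± 0.024 and varied only 1.15-fold between rats.

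With the behaviours 0 of the 34 passed in either direction. For startle the smallest p were those of Nsdhl, of sterol demethylation (0.077 ± 0.028, limma p = 0.0215), Acat2, of the first step (-0.079 ± 0.043), and the sterol exporter gene Abcg4 (-0.041 ± 0.022). For locomotion they were those of Acat2 (0.11 ± 0.03, limma p = 0.00849), Nsdhl (-0.068 ± 0.030, limma p = 0.0478) and Scarb1, an HDL receptor gene (-0.069 ± 0.042). Startle and locomotion were scored on the same rats, so the opposite signs are not separate results. For sugar feeding, Scarb1 had -0.085 ± 0.039, Cyp46a1, which turns cholesterol into the hydroxylated form that leaves the brain, 0.081 ± 0.040, and Mylip, a ubiquitin ligase gene of the uptake list, 0.20 ± 0.11, or 0.0097 without rat 5. For prepulse inhibition the slopes were 0.092 ± 0.043 for Mbtps2, an SREBP-cleaving protease gene, -0.041 ± 0.027 for the sterol carrier gene Stard4 and 0.057 ± 0.043 for Scarb1. For the plus maze they were -0.34 ± 0.06 for Mylip (limma adjusted p = 0.558), -0.072 ± 0.033 for Pmvk, of the mevalonate steps, and -0.097 ± 0.045 for Abca1, which exports cholesterol to apolipoproteins. Mylip rested on rat 5, where it was lowest at 5.59 against 6.18 to 7.07 in the other rats: without rat 5 its slope was -0.062, and that of Abca1 turned to 0.025. Srebf2 slopes on the 5 scores lay between -0.011 and 0.013.

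The patterns most like the mean of the 7 genes, by Pearson's r over the 10 rats, were those of Cdkn2d (0.93), B4galt5 (0.93), Mrps14 (0.92), Prelid1 (0.92), Pla2g12a (0.90), Lemd3 (0.89), Tmf1 (0.89) and Ndufa11 (0.88). At the other end stood Mindy2 (-0.90), Ankrd11 (-0.90), Nrxn3 (-0.88) and C2cd5 (-0.86). These are the extremes of 15521 probe sets, with a median r of 0.18, and carry no test. The mean was taken over centred levels that were not scaled. Dhcr7 (SD 0.20) and Idi1 (SD 0.17) therefore weigh more in it than Insig1 (SD 0.083) or Lss (SD 0.042). After quantile normalization Mindy2 was at -0.59, Ankrd11 at -0.63, C2cd5 at -0.58, Pla2g12a at 0.73, Cdkn2d at 0.79 and Lemd3 at 0.79, while Nrxn3 was at -0.95 and Ndufa11 at 0.92. Other tested probe sets of these genes had the opposite sign for Tmf1 (-0.09), C2cd5 (0.20) and 1 of 3 of Mindy2 (0.66). They had the same sign for Mrps14 (0.61), Cdkn2d (0.44), Lemd3 (0.21), Nrxn3 (-0.53), both of Ankrd11 (-0.63 and -0.73) and the other probe sets of Mindy2 (-0.60 and -0.46). Of the 34 other pathway genes, 27 had a positive r with that mean, beside 63.8% of all tested probe sets. Their median r was 0.32. The highest was 0.62 for both Scd, a desaturase gene of fatty acid synthesis, and Nr1h2, and the lowest -0.58 for Lrp1, a lipoprotein receptor gene. None of the 8 highest or 4 lowest genes was on the pathway list.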

How the data were processed

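Each of the 10 rats gave 1 Affymetrix array, and the deposited values are log2 expression summaries that the authors made with GCRMA under R 2.6.2, per the submitters' processing notes. The sources used here give no version number for GCRMA. GCRMA corrects background from probe sequence and quantile-normalizes arrays, yet the array medians of the deposited values still ran from 3.91 to 4.02 log2. Centring or renormalizing arrays changed the sign of some small slopes, and the cause was not tested. The number of arrays limits the precision. After 57 control probe sets were dropped, the 15521 probe sets in the upper 50% by mean were tested. Genes were named from the platform annotation: 20826 probe sets had 1 symbol, 436 several and 9780 none, and a probe set with several was not used for a name.

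Each score, the mean of Mbp and Mag, and each gene's own level was scaled to SD 1 and fitted across all probe sets with limma 3.58.1 in R 4.3.3 (lmFit, eBayes, Benjamini-Hochberg, threshold 0.05), after the script was tested on simulated data. Correlations used two-sided permutation tests with 100000 resamples, exact for the 7 rats with a plus maze score, in Python 3.11.15 with scipy 1.17.1. Nothing in the labels ties rats to batches. The p-values judge a slope or correlation against the variation between these 10 rats, or between 7 of them for the plus maze. The genes and lists were chosen with earlier results of these data known.

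The text names all 8 listed genes, the 3 other pathway genes of smallest p in each fit with Srebf2, and the 8 genes most like and 4 least like the mean of the genes. Alternatives were quantile normalization, arrays centred on their medians, no filter, ranks of the covariate, eBayes with trend and robust variance, the striatal score as a covariate, the mean of a gene's probe sets, and each rat left out. Mag alone in place of the Mbp and Mag mean was added after seeing the data. Promoter windows came from RefSeq (GRCr8).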

Additional observations from a re-analysis of the deposited data

Results flagged for a closer look

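In 2 of the 10 probe sets, 1 rat stood farther from the rest than Dixon's 95% limit for 10 samples, a gap of 0.466 of the whole range. Chance puts about 1 in 20 groups past that limit. The second Idi1 probe set had its highest value, 9.25 log2, in rat 4, a gap of 0.61 of its range, and the first Idi1 probe set was also highest in rat 4, at 9.95, without passing the limit. The Lss probe set of highest mean had its highest value, 7.01 log2, in rat 8, a gap of 0.63, while the other Lss probe set was lowest in that rat, at 6.68.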

How the results depend on the processing

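The count of probe sets past the threshold with the myelin mean, 417, was 175 with no filter, 636 on ranks and 7 when the striatal score was added, and 166 (without rat 7) to 405 (without rat 3) with 1 rat left out; it was also over 1.5 times lower without rat 2 (206), rat 4 (178), rat 8 (266) or rat 10 (226). The cause was not tested. Counts for the 5 scores, the 21 gene pairs and the 136 correlations were 0 under each alternative run. Of the 676 alternative values of the 42 slopes of the 7 genes, 65 changed sign and 0 passed the threshold.

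After quantile normalization the sign changed for Fdps on startle (0.021), Fdps and Dhcr7 on locomotion (-0.018, -0.017), Insig1 on sugar feeding (-0.019), and Srebf2 on locomotion, sugar feeding and prepulse inhibition (-0.0081, -0.0054, 0.018), and for r of Idi1 and Lss (0.21), Fdft1 and Sqle (0.076) and Lss and Insig1 (0.17). With arrays centred it changed for Fdps and Dhcr7 on locomotion (-0.0058, -0.0091) and Fdft1, Insig1 and Srebf2 on the plus maze (-0.0068, -0.0070, -0.0040). On ranks it changed for Fdps and Dhcr7 on locomotion (-0.013, -0.024), Insig1 on sugar feeding (-0.0049) and Fdft1, Lss and Dhcr7 on the plus maze (-0.016, 0.0045, 0.016). With the striatal covariate it changed for Lss on startle (-0.00035), Fdps on locomotion (-0.0057), Insig1 on sugar feeding (-0.0034), Idi1 and Insig1 on prepulse inhibition (-0.011, -0.0064) and Idi1 on the myelin mean (-0.0078). With a gene's probe sets averaged it changed for Fdft1 and Lss on the plus maze (-0.016, 0.014) and Lss on the myelin mean (-0.0025). With 1 rat left out, slopes that changed sign ran on startle -0.020 to 0.0047 for Fdps, -0.092 to 0.0025 for Idi1, -0.0052 to 0.0055 for Lss, -0.0019 to 0.019 for Srebf2; on locomotion -0.082 to 0.025 for Dhcr7, -0.035 to 0.019 for Fdps, -0.038 to 0.083 for Idi1, -0.0029 to 0.042 for Insig1, -0.015 to 0.0022 for Lss, -0.039 to 0.025 for Sqle, -0.00035 to 0.022 for Srebf2, on sugar feeding -0.13 to 0.010 for Dhcr7, -0.049 to 0.0064 for Fdft1, -0.053 to 0.022 for Fdps, -0.016 to 0.013 for Insig1, -0.042 to 0.0090 for Sqle, -0.0021 to 0.024 for Srebf2, on prepulse inhibition -0.023 to 0.058 for Idi1, -0.021 to 0.020 for Insig1, -0.017 to 0.056 for Sqle, -0.020 to 0.0050 for Srebf2, on plus maze -0.13 to 0.025 for Abca1, -0.13 to 0.11 for Dhcr7, -0.047 to 0.035 for Fdft1, -0.080 to 0.021 for Fdps, -0.090 to 0.033 for Idi1, -0.0025 to 0.051 for Insig1, -0.0080 to 0.0071 for Lss. Correlations that changed sign ran from -0.078 to 0.32 for Fdft1 and Insig1, -0.050 to 0.29 for Fdft1 and Lss, -0.31 to 0.27 for Fdft1 and Sqle, -0.086 to 0.27 for Fdps and Fdft1, -0.0016 to 0.41 for Fdps and Lss, -0.49 to 0.077 for Idi1 and Lss, -0.41 to 0.27 for Lss and Dhcr7, -0.48 to 0.33 for Sqle and Lss. The cause was not tested. No paired analysis was possible because the rats form 1 group with a single array apiece.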
